A study of Mus musculus with 9 samples.

Results

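Retinoid carriers, storage and clearance genes were followed here in mouse spermatogonia preparations under vitamin A deficiency. The members are Rbp4, Stra6, Lrat, Retsat, Crabp1, Crabp2, Fabp5, Cyp26a1 and Cyp26b1, 9 of the 18193 genes that the platform table names. Every probe set whose single gene symbol is one of them was taken, which gave 12 of the 45101 probe sets on the array. Of these genes, 6 have 1 probe set and 3 (Lrat, Fabp5 and Retsat) have 2. The control group consisted of 3 arrays from adult Balb/C mice on a normal diet, and 3 arrays each came from adult Balb/C mice kept for 18 or 25 weeks on a diet deficient in vitamin A (VAD). No genetic change is given for any group. Each preparation pooled testes of 2 mice, was plated overnight and sorted by sedimentation, with a purity put by the labels at over 90%. The age of the control mice and whether each array held a separate preparation are not given, so the p-values measure only the spread between these arrays, which may be technical.

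Vitamin A travels in blood as retinol bound to RBP4 and enters many cells through the receptor STRA6. Inside the cell LRAT esterifies retinol for storage, dehydrogenases oxidise it to retinoic acid, small binding proteins (CRABP1, CRABP2, FABP5) carry the acid, and CYP26 enzymes hydroxylate it for removal. In the testis retinoic acid triggers the differentiation of spermatogonia and their entry into meiosis. Paired nuclear receptors for it bind direct repeats of a hexamer in the DNA of target genes, of which Cyp26a1 is a classic example.

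RefSeq promoter windows of build GRCm38.p6, from 250 bases before to 50 bases after each annotated start, were found for 7 of the 9 genes (11 windows in all). The windows were searched on both strands for direct repeats with a spacer of 1, 2 or 5 bases, where each half-site could be the hexamer AGGTCA, its variant AGTTCA, the variant GGGTCA or the variant GGTTCA. Among the 11 windows a repeat was found in the Cyp26a1 window alone, with a spacer of 5 bases, and 0.0974% of all 32851 promoter windows of that length hold such a repeat with that spacer. The shares with spacers of 1 and 2 bases were 0.222% and 0.268%. The window is shown 5′ to 3′ because it carries that repeat, in capitals, which starts at position -32 from the annotated start, lies on the opposite strand and overlaps no other repeat searched. It spans chr19:37697558-37697857 on the plus strand.
Cyp26a1: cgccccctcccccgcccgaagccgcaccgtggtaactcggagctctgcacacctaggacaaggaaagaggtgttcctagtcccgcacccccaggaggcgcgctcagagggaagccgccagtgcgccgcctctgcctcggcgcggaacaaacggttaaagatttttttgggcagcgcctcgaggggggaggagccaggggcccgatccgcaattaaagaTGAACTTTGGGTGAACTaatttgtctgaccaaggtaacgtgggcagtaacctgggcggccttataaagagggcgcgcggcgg
The match is a description of letters, and binding there was not measured.

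The 9 arrays were not uniform. The third control array and the third 25-week array (the dim pair) had trimmed mean signals of 23.0 and 23.3, against 55.6 to 186 on the other 7 arrays. The pair correlated with the other arrays at 0.776 to 0.809 across probe sets, and the others with each other at 0.935 to 0.981. VAD 25-week replicates 1 and 2 were the brightest and carried spiked poly-A control signal of 303 and 380, against 5.31 to 11.6 elsewhere, so outside the dim pair their handling cannot be told apart from the longer diet. Values below are quantile-normalized log2(signal + pseudocount), called normalized log2 levels, and differences come from a limma model with group and a block for the dim pair unless another model is named. A gene passed when its p-value adjusted over all 27022 probe sets above a signal filter was under 0.05. In bulk preparations fewer cells of a type and less RNA per cell cannot be told apart.

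The labelled cell type was checked against marker genes. Of 13 markers of undifferentiated spermatogonia on the array 8 were above the filter, while Ret, Lin28a, Sall4, Thy1 and Pou5f1 were below it. All 8 markers of differentiating spermatogonia were above it, and so were all 8 markers of pachytene spermatocytes and all 12 of spermatids, which are later germ cells. In control the summed normalized signal was 410 to 531 for the 13 markers of undifferentiated and 896 to 1788 for those of differentiating spermatogonia. It was 21983 to 27558 for pachytene spermatocyte and 8516 to 19985 for spermatid markers. Of 25 Sertoli cell markers 22 were above the filter, with Sox9, Amh and Gdnf below. Of all 45037 probe sets 27022 were above it, and 8 of 13 is near that share. A marker with several probe sets counted when 1 of them was above the filter, so markers and probe sets are not counted alike. No marker of any list was listed at 0 on any array, which does not show detection, since detection calls are not given.

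The members themselves had low deposited signals. These ran from 0.185 to 94.0 over the 108 member values, and 62 of the values were under 10, where the array medians lay between 7.33 and 27.9. The share of all values under 10 was not counted. Of the 12 probe sets 6 had a mean above the filter limit of 3.39 on the normalized log2 scale. They were those of Rbp4 and Cyp26a1, both of Lrat, and 1 each of Fabp5 and Retsat. The limit is the 40th percentile of the means, and 27022 of all 45037 probe sets reached it, so 6 of 12 is near the share of all. The probe sets of Stra6, Crabp1, Crabp2 and Cyp26b1 and the second ones of Fabp5 and Retsat lay below the limit. Lrat 1444487_at, Retsat 1424715_at and Cyp26a1 were above it only through the deficient groups, since their control means of 2.84, 3.30 and 3.36 lay under it. For Cyp26a1 the 18-week mean was 3.42. Its 25-week mean of 3.70 rested on replicate 3, a dim array, at 6.14, beside 2.93 and 2.03 on the other arrays. For the probe sets below the filter, differences are taken from the same block model fitted to all 45037 probe sets with no filter.

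**Figure D1:**
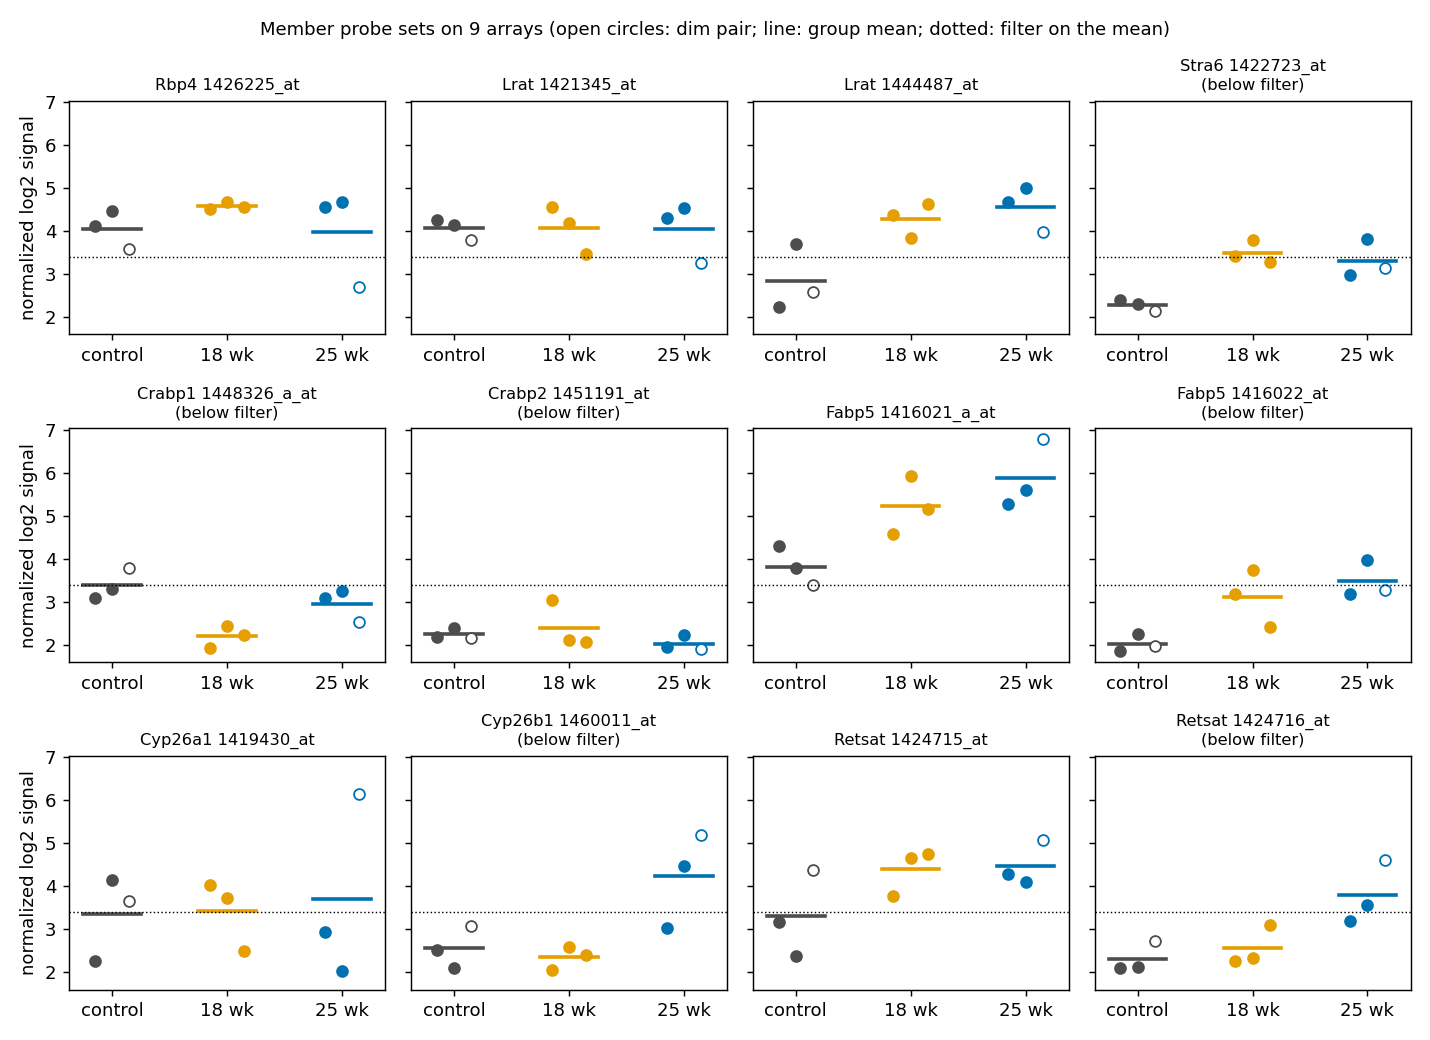
Normalized log2 levels (y axis) of the 12 member probe sets on the control, 18-week and 25-week arrays (x axis), with filled circles for arrays outside the dim pair, open circles for the dim pair, a line for each group mean and a dotted line at the filter limit of 3.39. Fabp5 1416021_a_at, Stra6 and Lrat 1444487_at are higher on every deficient array than on any control array, whereas Cyp26a1 is scattered from 2.03 to 6.14 within the 25-week group.

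At 25 weeks 2 of the 6 filtered member probe sets passed, both higher, against 14.9% of all filtered probe sets in either direction and 8.54% in the higher direction. They were Fabp5 1416021_a_at and Lrat 1444487_at. The latter was above the filter only through the deficient groups, as were Cyp26a1 and the filtered Retsat probe set. Such probe sets enter the count of 6 through the difference that is tested. How many of all filtered probe sets entered in this way was not tested. The counts out of 6 therefore cannot show whether members passed more often than other probe sets. At 18 weeks 0 of 6 passed, against 1.47% of all filtered probe sets, with 3 of the 6 at an unadjusted limma p under 0.05, against 16.5% of all. At 25 weeks 3 of the 6 had an unadjusted limma p under 0.05, against 30.1%. Both 25-week calls also stood when the dim pair was dropped (2 of the 5 then above the filter, which Cyp26a1 no longer was, against 15.7% of all) and when replicate number was added as a block (2 of 6, against 9.62%). In the limma model with group as its sole term 0 of 6 and 0% of all probe sets passed in each of the 3 comparisons. Unadjusted, 2 of the 6 member probe sets had a limma p under 0.05 in that model at 18 weeks, 2 at 25 weeks and 0 between the times, against 7.25%, 11.9% and 3.83% of all. With no filter, 5 of the 12 member probe sets passed at 25 weeks, all higher, against 7.25% of 45037 in either direction and 4.24% higher. With the dim pair also dropped 1 of 12 passed, Lrat 1444487_at, against 7.42%. At 18 weeks 0 of 12 passed with no filter, against 0.606%, and 6 had an unadjusted limma p under 0.05, against 12.7% of all. Over all 12, the median difference from control was 0.65 on the log2 scale at 18 weeks (10 above 0) and 1.10 at 25 weeks (8 above 0), beside -0.02 and -0.03 over all probe sets. The deficient groups share their control arrays, and probe sets of 1 gene are not independent.

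Fabp5 encodes a fatty acid binding protein that also carries retinoic acid, and it delivers its ligands to the nuclear receptor PPARδ. Probe set 1416021_a_at was at 4.28, 3.78 and 3.38 normalized log2 in control replicates 1 to 3. It was at 4.58, 5.93 and 5.16 in the 18-week arrays and at 5.26, 5.60 and 6.79 in the 25-week arrays. All 6 deficient arrays lay above all 3 controls, and the 2 deficient groups overlapped.

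At 25 weeks Fabp5 rose by 2.07 ± 0.43 (log2 difference, SE, n = 3 per group; limma adjusted p = 0.0101), a fold of 4.19. The limma adjusted p was 0.167 with group as the sole term, 0.0344 with the dim pair dropped, 0.0304 with the replicate block added to the dim pair block and 0.137 with the replicate block alone. Leaving out each array in turn kept the difference between 1.45 and 2.39 and the call in all 9 filtered fits. Fitted with no filter, the limma adjusted p was 0.0131, and it was 0.0642 with the dim pair also dropped, where the call did not stand. The call was also not kept in every fit with no filter and a single array left out. The 25-week difference was 1.40 over the arrays outside the dim pair and 3.41 within it. At 18 weeks the difference was 1.53 ± 0.46, which did not pass (limma adjusted p = 0.127; 95% interval 0.52 to 2.53).

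The second Fabp5 probe set, 1416022_at, lay below the filter. Its levels were 1.85, 2.26 and 1.98 in control, 3.17, 3.74 and 2.42 at 18 weeks, and 3.19, 3.98 and 3.27 at 25 weeks. It too had every deficient array above every control. In the fit with no filter its difference was 1.45 ± 0.41 at 25 weeks (limma adjusted p = 0.0495, or 0.0988 when the dim pair was dropped) and 1.02 ± 0.43 at 18 weeks (limma adjusted p = 0.348).

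Beside Fabp5, the Sertoli cell markers moved in the same comparisons. Of the 22 above the filter, 10 rose and 1 (Cdh2, a cadherin) fell at 25 weeks, and 7 rose and 0 fell at 18 weeks, with medians of 1.28 and 1.33. Over all filtered probe sets 8.54% rose at 25 weeks, and 1.47% passed in either direction at 18 weeks. The summed normalized signal of the 25 markers was 676 to 910 in control, 1250 to 3079 at 18 weeks and 1396 to 2370 at 25 weeks. The highest Sertoli sum among the deficient arrays of each time was on VAD 18-week replicate 2 and VAD 25-week replicate 3, the arrays that were also highest in Fabp5 1416021_a_at within their groups. In control the array with the highest sum, replicate 3 at 910, had the lowest Fabp5 level, 3.38. Both replicates 3 named here are the dim pair. Outside it, control replicates 1 and 2 ran in the same order (sums of 770 and 676, Fabp5 at 4.28 and 3.78). VAD 25-week replicates 1 and 2 ran in opposite order (sums of 1449 and 1396, Fabp5 at 5.26 and 5.60). Several of the Sertoli markers were taken up with earlier results of these data known, so how many rose is not independent of these data. The part of the Sertoli markers in the Fabp5 result was not tested.

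Other cell types differed less uniformly. Of 6 Leydig cell markers above the filter 1 (Cyp17a1, an enzyme of androgen synthesis) rose at 25 weeks and 0 at 18 weeks, and of 8 macrophage and leukocyte markers 5 rose at 25 weeks and 0 at 18 weeks. The summed signal of the 7 Leydig markers on the array was 653 to 1914 in control, 1750 to 2511 at 18 weeks and 1121 to 1724 at 25 weeks. That of the 14 macrophage and leukocyte markers was 157 to 2495, 198 to 261 and 323 to 1046. The Leydig sums overlapped between control and both deficient groups. The highest leukocyte sums in control and at 25 weeks, 2495 and 1046, were on the dim pair. Outside the pair these sums were 179 and 157 in control, 198 to 261 at 18 weeks and 396 and 323 at 25 weeks, with no overlap. Of 4 peritubular myoid and 4 endothelial markers above the filter 0 passed at either time. Among germ cell markers above the filter at 25 weeks, 1 of 8 of undifferentiated spermatogonia rose, 1 of 8 of differentiating spermatogonia rose and 1 fell, 3 of 8 of pachytene spermatocytes rose and 2 fell, and 4 of 12 of spermatids fell. At 18 weeks 1 of 8 of undifferentiated spermatogonia rose (Id4), 2 of 8 of pachytene spermatocytes rose (Piwil1 and Sycp3), and 0 of 8 of differentiating spermatogonia and 0 of 12 of spermatids passed. Of all filtered probe sets 14.9% passed in either direction at 25 weeks and 1.47% at 18 weeks. The part of any of these lists in the member results was not tested.

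Genes with the pattern most like that of Fabp5 1416021_a_at were Unc5a (Pearson r = 0.995), a netrin receptor, Nid1 (r = 0.985), a basement membrane protein, and Rab7 (r = 0.978), a GTPase of late endosomes. These were the 3 highest of 13615 genes over the 7 arrays outside the dim pair, which share their groups and their scaling, and they are given as a description.

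Retinol carriage and uptake came next. Rbp4, the serum carrier of retinol, whose protein in serum served the study as the measure of vitamin A status, was at 4.11, 4.48 and 3.58 in control. It stood at 4.51, 4.68 and 4.57 at 18 weeks and at 4.57, 4.67 and 2.70 at 25 weeks, so the 18-week arrays lay just above the controls and the 25-week arrays overlapped them. The block model put the differences at 0.09 ± 0.34 at 18 weeks (limma adjusted p = 0.926; 95% interval -0.65 to 0.83) and -0.08 ± 0.32 at 25 weeks (limma adjusted p = 0.899; -0.77 to 0.62). The 25-week value was 0.33 outside the dim pair and -0.88 within it. Without VAD 25-week replicate 3, the lowest array and a dim one, the 25-week value was 0.34.

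Stra6, the membrane receptor for RBP4, lay below the filter but separated the groups. Its levels were 2.40, 2.32 and 2.15 in control, 3.42, 3.79 and 3.28 at 18 weeks, and 2.99, 3.83 and 3.13 at 25 weeks. Every deficient array lay above every control. In the fit with no filter the differences were 1.13 ± 0.39 at 18 weeks and 1.03 ± 0.36 at 25 weeks, and neither passed (limma adjusted p = 0.234 and 0.117). The 25-week difference was nearly the same outside the dim pair, 1.05, as within it, 0.98. The deposited signals of Stra6 were 0.900 to 1.18 in control, 6.75 to 8.63 at 18 weeks and 3.54 to 19.3 at 25 weeks, close to the floor of the array. They are not normalized, and on that scale the median difference of all filtered probe sets was 0.12 at 18 weeks and 0.93 at 25 weeks. The pseudocount compresses ratios of such low signals, and how much of them is background was not tested.

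At 18 weeks 6 of the 12 member probe sets separated the 3 deficient from the 3 control arrays with no overlap, against 16.2% of all probe sets. They were Rbp4, Lrat 1444487_at, Stra6, both Fabp5 probe sets and, in the lower direction, Crabp1. At 25 weeks 5 of 12 did, against 13.4%, namely Lrat 1444487_at, Stra6, both Fabp5 probe sets and Retsat 1424716_at, all higher.

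**Figure D2:**
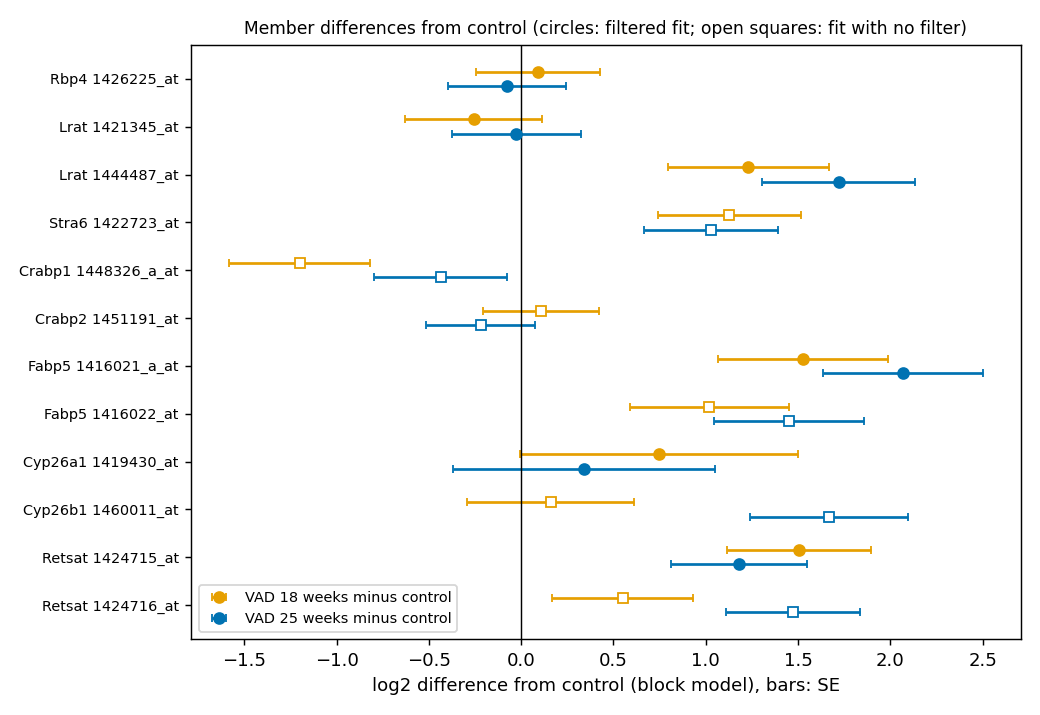
Log2 differences from control (x axis; bars are SE) of the 12 member probe sets (y axis) at 18 weeks (orange) and 25 weeks (blue) in the block model, with filled circles for the filtered fit and open squares for the fit with no filter. Fabp5 1416021_a_at has the largest values, 1.53 and 2.07, Cyp26b1 is at 0.16 and 1.67, and Crabp1 is the furthest below 0 at 18 weeks, at -1.20.

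Storage was read from Lrat, whose product esterifies retinol, and its 2 probe sets disagreed. Probe set 1421345_at, tied by the platform table to the RefSeq mRNA, was at 4.26, 4.14 and 3.80 in control. It was at 4.56, 4.19 and 3.47 at 18 weeks and at 4.31, 4.55 and 3.27 at 25 weeks, and the 3 groups overlapped. Its differences were -0.26 ± 0.37 at 18 weeks (limma adjusted p = 0.778; 95% interval -1.07 to 0.56) and -0.03 ± 0.35 at 25 weeks (limma adjusted p = 0.969; -0.79 to 0.74).

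Probe set 1444487_at, tied to an expressed sequence tag, was at 2.23, 3.71 and 2.57 in control, at 4.37, 3.83 and 4.63 at 18 weeks, and at 4.69, 5.0 and 3.99 at 25 weeks. All deficient arrays lay above the controls, by a narrow margin over control replicate 2. At 25 weeks it rose by 1.72 ± 0.41 (limma adjusted p = 0.0182, or 0.0315 with no filter), and the 18-week difference of 1.23 ± 0.44 did not pass (limma adjusted p = 0.192). The 25-week limma adjusted p was 0.205 with group as the sole term, 0.0232 with the dim pair dropped, 0.0404 with the replicate block added and 0.177 with the replicate block alone. It was 0.0582 without control replicate 1, with a difference of 1.26, 0.0575 without VAD 25-week replicate 1 and 0.0816 without VAD 25-week replicate 2. Which transcript the tag represents was not tested.

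Retsat encodes retinol saturase, which converts retinol to dihydroretinol. Probe set 1424715_at was at 3.17, 2.37 and 4.37 in control, 3.78, 4.66 and 4.75 at 18 weeks, and 4.29, 4.09 and 5.07 at 25 weeks. The groups overlapped through control replicate 3, a dim array, and outside the dim pair all deficient arrays were higher. The differences of 1.51 ± 0.39 at 18 weeks (limma adjusted p = 0.0845; 95% interval 0.65 to 2.36) and 1.18 ± 0.37 at 25 weeks (limma adjusted p = 0.0532; 0.37 to 1.99) did not pass. Without control replicate 3 both passed, at 1.67 (limma adjusted p = 0.0460) and 1.45 (limma adjusted p = 0.0468), and without VAD 18-week replicate 1 the 25-week difference did (1.17, limma adjusted p = 0.0437). Neither passed with the dim pair dropped (limma adjusted p = 0.0502 at 18 weeks and 0.0530 at 25 weeks). With group as the sole term the limma adjusted p was 0.716 and 0.447, and with the replicate block added 0.335 and 0.104.

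The second Retsat probe set, 1424716_at, below the filter, was at 2.11, 2.12 and 2.73 in control and at 2.25, 2.33 and 3.09 at 18 weeks. At 25 weeks it was at 3.19, 3.56 and 4.62, above all control and 18-week arrays. With no filter the 25-week difference was 1.47 ± 0.36 (limma adjusted p = 0.0283, or 0.0882 when the dim pair was dropped and 0.0501 with the replicate block added), and that at 18 weeks was 0.55 ± 0.38 (limma adjusted p = 0.605).

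Among the cytoplasmic retinoic acid carriers, Crabp1 and Crabp2 were both below the filter. Crabp1, whose product binds retinoic acid and is linked to its breakdown, was at 3.09, 3.29 and 3.79 in control and at 1.93, 2.43 and 2.23 at 18 weeks. At 25 weeks it was at 3.08, 3.25 and 2.54. The 18-week arrays lay below all others, and the 25-week arrays overlapped the controls. In the fit with no filter the 18-week difference of -1.20 ± 0.38 did not pass (limma adjusted p = 0.201), nor did the 25-week difference of -0.44 ± 0.36 (limma adjusted p = 0.537). The 25-week value was -0.03 outside the dim pair and -1.25 within it.

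Crabp2, whose product hands retinoic acid to its nuclear receptor, lay below the filter limit on every array. Its levels were 2.18, 2.39 and 2.16 in control, 3.05, 2.10 and 2.05 at 18 weeks, and 1.95, 2.22 and 1.91 at 25 weeks, and the groups overlapped. The differences were 0.11 ± 0.31 and -0.22 ± 0.30 (limma adjusted p = 0.929 and 0.726 with no filter), with 95% intervals of -0.57 to 0.79 and -0.86 to 0.42. Fabp5 was therefore the single carrier gene of retinoic acid whose difference passed, while the differences among the 3 carriers were not tested.

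Clearance was represented by the retinoic acid hydroxylases. Cyp26a1, the gene with the repeat shown above, was at 2.27, 4.14 and 3.67 in control, 4.04, 3.72 and 2.49 at 18 weeks, and 2.93, 2.03 and 6.14 at 25 weeks. Its arrays were scattered in every group, with SDs of 0.98, 0.82 and 2.16 (n = 3 each), and the groups overlapped. The differences of 0.75 ± 0.75 at 18 weeks and 0.34 ± 0.71 at 25 weeks did not pass (limma adjusted p = 0.661 and 0.782). Their 95% intervals were -0.90 to 2.39 and -1.21 to 1.89, and that at 25 weeks spans a change of 2-fold in either direction. At 25 weeks the value was -0.73 outside the dim pair and 2.48 within it, and without control replicate 3 it was -0.74.

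Cyp26b1, below the filter, was at 2.52, 2.09 and 3.07 in control and at 2.06, 2.59 and 2.41 at 18 weeks. At 25 weeks it was at 3.03, 4.46 and 5.19, and the lowest of these fell just under control replicate 3. With no filter the 25-week difference was 1.67 ± 0.43 (limma adjusted p = 0.0343), and it did not pass without the dim pair (1.53, limma adjusted p = 0.110), with group as the sole term (limma adjusted p = 0.378) or with the replicate block added (limma adjusted p = 0.0662). The 18-week difference was 0.16 ± 0.45 (limma adjusted p = 0.928). All 25-week arrays lay above all 18-week arrays.

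**Figure D3:**
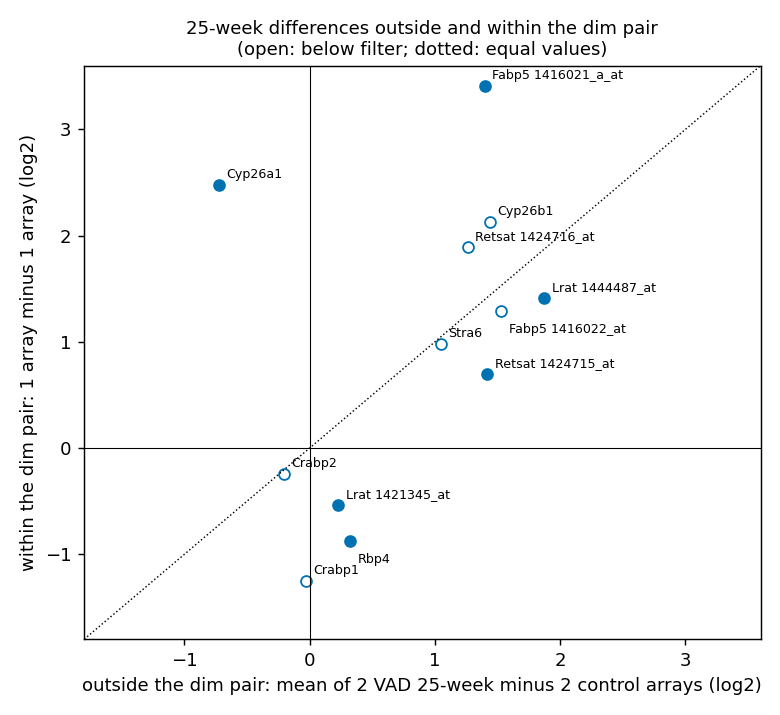
The 25-week minus control difference of each member probe set over the arrays outside the dim pair (x axis, log2) against the difference within the dim pair (y axis, log2), with open circles for probe sets below the filter and a dotted line of equal values. Cyp26a1 (-0.73 and 2.48), Rbp4 (0.33 and -0.88) and Lrat 1421345_at (0.23 and -0.54) change sign between the axes, and Fabp5 1416021_a_at (1.40 and 3.41) lies above 0 on both.

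Between the deficient groups 0 of the 6 filtered member probe sets passed, against 0% of all filtered probe sets in limma's block model. None of these 6 had an unadjusted p under 0.05, against 11.5% of all. With no filter 0 of 12 passed, against 0% of all, and 2 had an unadjusted limma p under 0.05, against 8.98% of all, and these were Cyp26b1 and Retsat 1424716_at, both higher at 25 weeks. In 3 of 12 the groups did not overlap, against 14.3% of all, namely these 2 and Crabp1, which lay higher at 25 weeks. The member differences between the times ran from -0.40 to 1.51.

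Other genes of the retinoid pathway were read from a list of 48 genes, of which 44 are on the array by symbol and 29 had a probe set above the filter. At 25 weeks 5 rose, 1 fell and 23 did not pass, with a median of -0.01, against 14.9% of all filtered probe sets passing. At 18 weeks 0 of 29 passed, with a median of -0.02, against 1.47%. The genes that rose were Aldh1a1 (2.23 ± 0.50), which makes retinoic acid from retinal, Dhrs7 (1.58 ± 0.45), Adh5 (1.49 ± 0.36), Adh1 (0.89 ± 0.23), an alcohol dehydrogenase that oxidises retinol, and Rdh14 (0.78 ± 0.20), a retinol dehydrogenase. Dhrs4, a short-chain dehydrogenase, fell by 1.05 ± 0.21, and was at -0.07 on the deposited scale, where the median of all filtered probe sets was 0.93. A second Dhrs4 probe set at -0.89 did not pass (limma adjusted p = 0.158). Without the dim pair Rdh12 and Cyp2s1 were no longer above the filter. Of the other pathway genes 4 passed, against 15.7% of all filtered probe sets. They were Rdh14 and Dhrs4 (limma adjusted p = 0.0112 and 0.0128), Rdh10 (1.07, limma adjusted p = 0.0188) and Rbp2 (-1.47, limma adjusted p = 0.0448), the last named after its value was seen. Aldh1a1, Dhrs7, Adh5 and Adh1 did not pass without the pair (limma adjusted p = 0.0615, 0.146, 0.0744 and 0.0679).

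Among the genes around the members' own steps was Rdh10, which oxidises retinol to retinal. Its brightest kept probe set was at 0.34 ± 0.28 at 18 weeks and 0.66 ± 0.27 at 25 weeks (limma adjusted p = 0.595 and 0.122). The 25-week call of that probe set therefore depends on the dim pair. Another Rdh10 probe set above the filter was at 0.24 at 25 weeks (limma adjusted p = 0.583). Outside the pair its levels were 4.01 and 3.91 in control and 4.34 and 4.12 at 25 weeks. Dhrs3, which reduces retinal back to retinol, was at -0.79 ± 0.26 and -0.76 ± 0.24 (limma adjusted p = 0.155 and 0.0544). Aldh1a2 was at 0.19 ± 0.13 and 0.03 ± 0.12, and Stra8, a germ cell target of retinoic acid, at -0.86 ± 0.57 and -0.14 ± 0.53, none of which passed. Without the dim pair the 25-week value of Stra8 was 0.42 (limma adjusted p = 0.706).

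**Figure D4:**
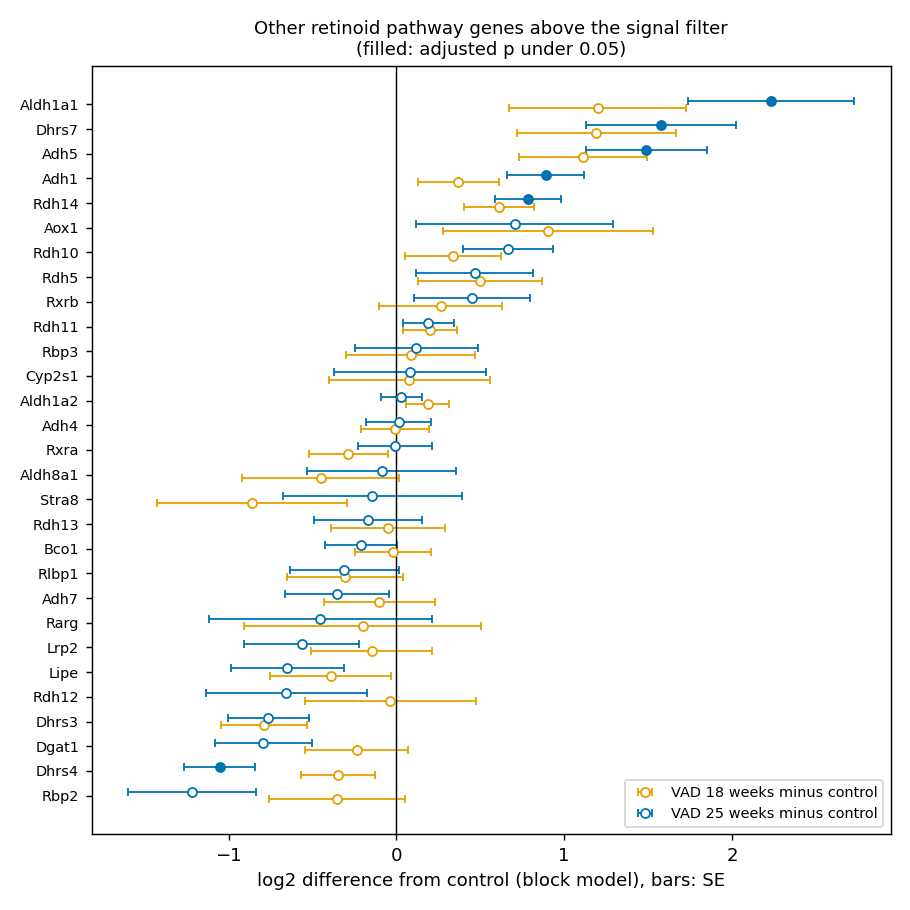
Log2 differences from control (x axis; bars are SE) of the 29 other retinoid pathway genes above the filter (y axis, ordered by the 25-week value) at 18 weeks (orange) and 25 weeks (blue) in the block model, with filled circles where the adjusted p was under 0.05. Filled circles appear at 25 weeks alone, for Aldh1a1, Dhrs7, Adh5, Adh1, Rdh14 and Dhrs4, and Aldh1a1 has the largest difference, 2.23.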

How the data were processed

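The authors deposited 1 linear intensity for each probe set, and the submitters' processing notes name MAS5 as its source. Its version, scaling target and detection calls are not stated. Per the labels' protocols 100 ng of total RNA was amplified in 2 cycles. A pseudocount of 3.26, the 25th percentile of all signals, was added before log2 and quantile normalization. After removal of 64 control probe sets, those whose mean reached the 40th percentile entered the fit (27022). limma 3.58.1 in R 4.3.3 (eBayes with a trend) was fitted over all 9 arrays with group and a block for the dim arrays, defined by a trimmed mean (2% cut at either end) below 0.5 of the median array, and p-values were Benjamini-Hochberg adjusted over all kept probe sets. The number of arrays limits the precision. The script was tested on simulated data. Members, gene lists, the block and the tests were chosen with earlier results of these data known.

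All member probe sets are named. Of the other pathway genes those past the threshold and a fixed set are named (Aldh1a1, Aldh1a2, Rdh10, Dhrs3 and Stra8), each by its brightest kept probe set. For a member gene whose brightest probe set passed, which was Fabp5 alone, the 3 genes of most similar pattern are named. Alternatives covered the block, replicate numbers, scaling, pseudocount, filter, variance trend, array weights and each array left out, and running them with no filter was chosen after seeing the data. Same-numbered arrays deviated together (r = 0.519 to 0.690) between control and 25 weeks, where both replicates 3 are dim, and did not in the other 6 pairs (-0.0047 to 0.0750). Over replicates 1 and 2 alone that r was -0.03. Gene coordinates are not given because the files name no build.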

Additional observations from a re-analysis of the deposited data

How the results depend on the processing

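Of the 6 filtered member probe sets, the number that passed at 18 weeks (0 in the block model) was 2 with array weights and 0 to 1 when single arrays were left out. At 25 weeks (2) it was 0 with group as the sole term, 0 with the replicate block in place of the dim pair block, 1 at a filter at the 60th percentile, where 1 member was measured, 3 with array weights, 3 of 5 measured on the deposited scale and 1 to 3 when single arrays were left out. With no filter, which measures all 12, the 25-week count was 5, and it was 7 on the deposited scale, 0 with group as the sole term, 1 without the dim pair, 2 with the replicate block added to the dim pair block, 0 with the replicate block alone, 2 with median centring, 0 with no trend in the variance and 0 to 4 when single arrays were left out. The count between the times stayed at 0 in all of these. The cause of these changes was not tested. Over all filtered probe sets the 25-week count of 4017 fell to 2599 with the replicate block added, to 2390 with no trend and to 0 with group alone, and rose to 10578 on the deposited scale and 6592 with array weights. At 18 weeks 396 became 0 with no trend, 19 with the replicate block added, 134 on the deposited scale, 1086 with array weights and 1076 without the dim pair. On the deposited scale the median of all filtered probe sets at 25 weeks was 0.93, so reversals on that scale carry this shift.

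Directions reversed in 27 of 462 single values, none of them past the threshold. At 25 weeks Rbp4 and Lrat 1421345_at came out above control without the dim pair (0.35 and 0.25), with median centring (0.078 and 0.083), at a pseudocount of 16 (0.015 and 0.0088), on the authors' own scale (0.92 and 0.93), with array weights (0.20 and 0.18), and without either array of the pair (ranges over single arrays left out of -0.30 to 0.34 and -0.16 to 0.24). Cyp26a1 was at -0.66 with array weights and between -0.74 and 1.18 with single arrays left out, and Crabp1 and Crabp2 were at 0.35 and 0.079 on the deposited scale. The Cyp26a1 range does not include the fit without VAD 25-week replicate 3, where Cyp26a1 was not above the filter. At 18 weeks Lrat 1421345_at was at 0.0022 with group alone and with the replicate block alone, at 0.044 with the replicate block added and between -0.50 and 0.043 with single arrays left out. Rbp4 lay between -0.19 and 0.30 and Crabp2 between -0.21 and 0.28 with single arrays left out. Cyp26b1 was at -0.21 with group alone and with the replicate block alone, and at -0.13 with median centring. Signals near the array floor limit most members.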
